A study of Oryza sativa with 6 samples.

Results

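Plastid genes are read by a pair of RNA polymerase systems, and 9 nuclear genes of these systems were followed in leaves of a rice line that overexpresses DGP1. The plastid-encoded polymerase, PEP, is a bacterial-type enzyme with core subunits made in the chloroplast. It finds its promoters only with sigma factors, which are encoded in the nucleus, and it carries further nuclear-encoded proteins that hold the complex together and tie it to redox state. A phage-type polymerase, also nuclear-encoded, transcribes many housekeeping genes of the plastid, among them those of the PEP core. In leaves PEP transcribes most photosynthesis genes of the plastid, and plants that lack it stay pale. DGP1 is known from earlier work as a repressor of chlorophyll synthesis in rice, and the study asked how it acts on metabolism in leaves.

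The genes were chosen by rice locus ID for their known place in plastid transcription: 5 sigma factors (SIG1, SIG2A, SIG2B, SIG5 and SIG6), 3 PEP-associated proteins (TRXz, FLN1 and FLN2) and 1 phage-type polymerase (RpoTp). All 9 IDs were found among 19696 rows, and none was absent. The overexpressor group was DGP1-OE1, 1 line in 3 libraries, and it was set against 3 libraries of ZH11, the japonica wild type. Both groups were leaves of plants 3 weeks old, grown in 1/2MS medium (a defined plant culture medium) under conditions that the labels call normal, and all titles carry the mark Ck. The promoter that drives DGP1 is not given in the sources used here, and the labels do not say whether a library is 1 plant or a pool, so the p-values cover only the spread among libraries, part or all of which may be technical. The table pairs no ID with a gene name, so the level of DGP1 itself and the leaf markers were not checked. Gene names here came with the list of locus IDs that defined the set, and they were not checked against a reference.

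Values are FPKM, fragment counts scaled to transcript length and library size, which allows levels of different genes to be compared per length. They summed to between 686327 and 752617 per library over all rows, with medians between 6.69 and 8.29 FPKM. The depth is unknown, since the table has no counts. The leaf is a mixture of cells, so fewer cells of a type and less RNA per cell cannot be told apart in any value below.

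No gene of the set passed the test for a difference between DGP1-OE1 and ZH11. The test was limma on the log2(FPKM + 1) scale, adjusted over 18270 rows, in which 0.356% of rows were called at an adjusted p under 0.05, 29 higher and 36 lower in DGP1-OE1. The adjusted p of the 9 genes ran from 0.414 to 0.991. At an unadjusted p under 0.05 stood 4 of the 9, namely SIG1, SIG2A, SIG2B and FLN2, all higher in DGP1-OE1, where 8.8% of all rows reached this limit in either direction. FLN2 was tested only through its DGP1-OE1 libraries and could enter only as higher, and without it the count was 3 of 8. Without DGP1-OE1 replicate 2 that count was 0 of 9, where 8.66% of all rows reached it. It was 1 of 9 without ZH11 replicate 1 (SIG2B, where 5.98% of all rows reached it) and 1 of 9 without ZH11 replicate 3 (FLN2, where 7.62% did). Leaving out the other libraries gave 3 of 9 without DGP1-OE1 replicate 1 (6.45% of all rows), 4 of 9 without DGP1-OE1 replicate 3 (9.05%) and 5 of 9 without ZH11 replicate 2 (10.9%). All these leave-out counts keep FLN2 among the 9, although it could enter them only as higher.

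**Figure D1:**
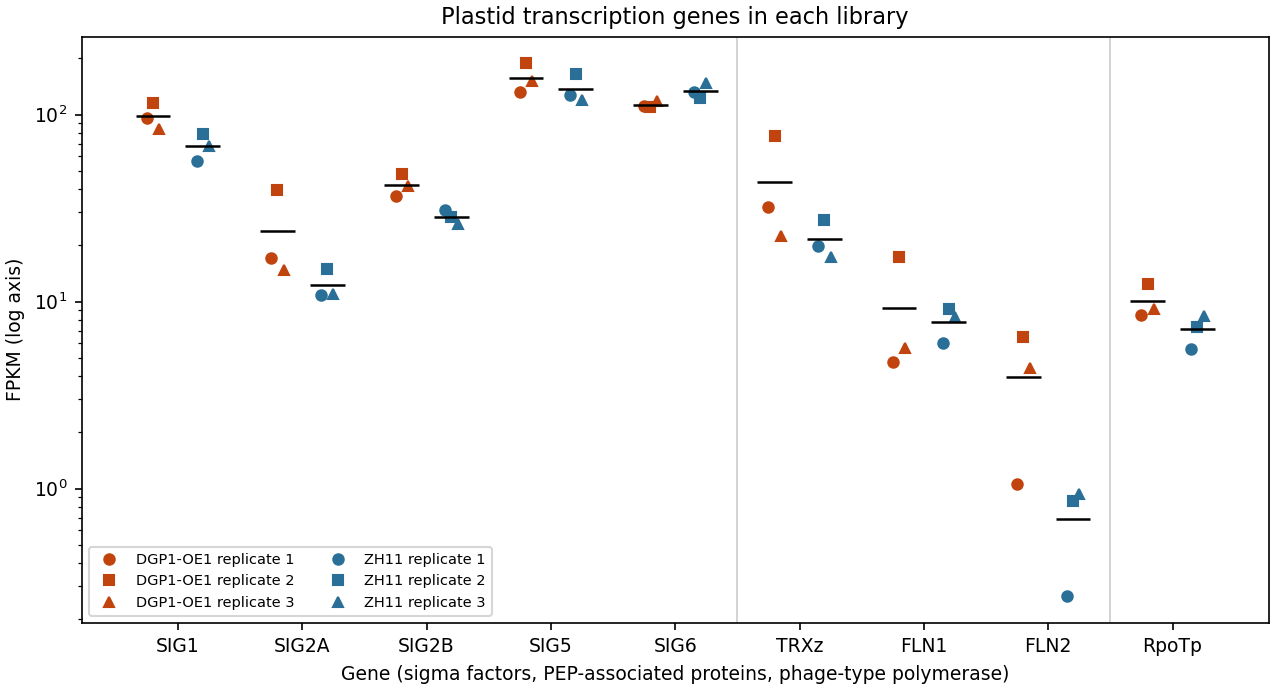
FPKM of the 9 genes in each library on a log axis, DGP1-OE1 left (orange) and ZH11 right (blue) for each gene. The marker shape gives the replicate and the bar the mean of 3 libraries. DGP1-OE1 replicate 2 (orange squares) is the highest library for 8 genes, and SIG6 is the only one of the 9 with all DGP1-OE1 libraries under all ZH11 libraries.

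The order of levels was nearly the same in all libraries. SIG5 and SIG6 had the highest FPKM of the 9 genes, with means over all 6 libraries of 147 and 124 FPKM, above 96.7% and 96.0% of all rows. SIG1 followed at 83.1 FPKM, SIG2B at 35.3, TRXz at 32.7, SIG2A at 18.0, RpoTp at 8.58, FLN1 at 8.53 and FLN2 at 2.33 FPKM. The steps from SIG1 to SIG2B, from TRXz to SIG2A, from SIG2A to RpoTp and from FLN1 to FLN2 held in 6 of 6 libraries. SIG5 was above SIG6 in all 3 DGP1-OE1 libraries and in 1 of the 3 ZH11 libraries, so this pair had no fixed order in the wild type. SIG6 was above SIG1, and SIG2B above TRXz, in 5 of 6 libraries, the exception both times being DGP1-OE1 replicate 2. RpoTp and FLN1 were in either order in 3 libraries each.

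Among the sigma factors, SIG1 (Os08g0163400, on chromosome 8), which in rice is needed for full transcription of the photosystem I gene psaA, had 96.3, 115 and 83.5 FPKM in DGP1-OE1 replicates 1, 2 and 3, against 56.8, 79.1 and 68.0 FPKM in ZH11. All 3 DGP1-OE1 libraries lay above all 3 ZH11 libraries, though the lowest of DGP1-OE1 and the highest of ZH11 were close. It averaged 98.3 ± 15.9 FPKM in DGP1-OE1 and 68.0 ± 11.2 FPKM in ZH11 (mean ± SD, n = 3). The log2 difference was 0.53 (SE 0.21) with a 95% interval of 0.07 to 0.98 (limma, adjusted p = 0.479).

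SIG2A (Os11g0448400, chromosome 11) and SIG2B (Os03g0271100, chromosome 3) are paralogs of the SIG2 type, which in Arabidopsis serves tRNA genes of the plastid. How reads common to the pair were assigned is not given in the sources used here. SIG2B stood at 36.8, 48.3 and 41.5 FPKM in DGP1-OE1, against 31.0, 28.5 and 26.0 FPKM in ZH11, with no overlap of the groups. It averaged 42.2 ± 5.74 FPKM in DGP1-OE1 and 28.5 ± 2.53 FPKM in ZH11 (mean ± SD, n = 3). The log2 difference was 0.55 (SE 0.20; limma, adjusted p = 0.442). SIG2A had 17.1, 39.6 and 14.7 FPKM in DGP1-OE1, against 10.8, 14.9 and 11.0 FPKM in ZH11. DGP1-OE1 replicate 2 was far above the other two libraries of its line, at 2.49 times their mean, and the lowest DGP1-OE1 library was just under the highest of ZH11. The log2 difference of SIG2A was 0.78 (SE 0.34) over all libraries (limma, adjusted p = 0.548) and 0.36 without DGP1-OE1 replicate 2 (limma, adjusted p = 0.782).

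SIG5 (Os05g0586600, chromosome 5), in Arabidopsis the sigma factor that responds to light and stress and drives the photosystem II gene psbD, had 132, 188 and 151 FPKM in DGP1-OE1 and 128, 165 and 120 FPKM in ZH11. The groups overlapped over most of their range, and in both the library numbered 2 was the highest. Its log2 difference was 0.19 with an interval of -0.27 to 0.65 (limma, adjusted p = 0.876), which spans a fold of 0.827 to 1.57. It was 0.05 without DGP1-OE1 replicate 2 and 0.33 without ZH11 replicate 2.

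SIG6 (Os08g0242800, chromosome 8), which in Arabidopsis acts early in chloroplast development, was the one gene of the 9 with a log2 difference below 0. It stood at 111, 110.5 and 118 FPKM in DGP1-OE1, against 132, 123 and 147 FPKM in ZH11. All DGP1-OE1 libraries lay under all ZH11 libraries, and those of DGP1-OE1 lay close together, with an SD of 4.06 FPKM against 12.2 FPKM in ZH11. The log2 difference of -0.24 had an SE of 0.18 and an interval of -0.63 to 0.15 (limma, adjusted p = 0.772).

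**Figure D2:**
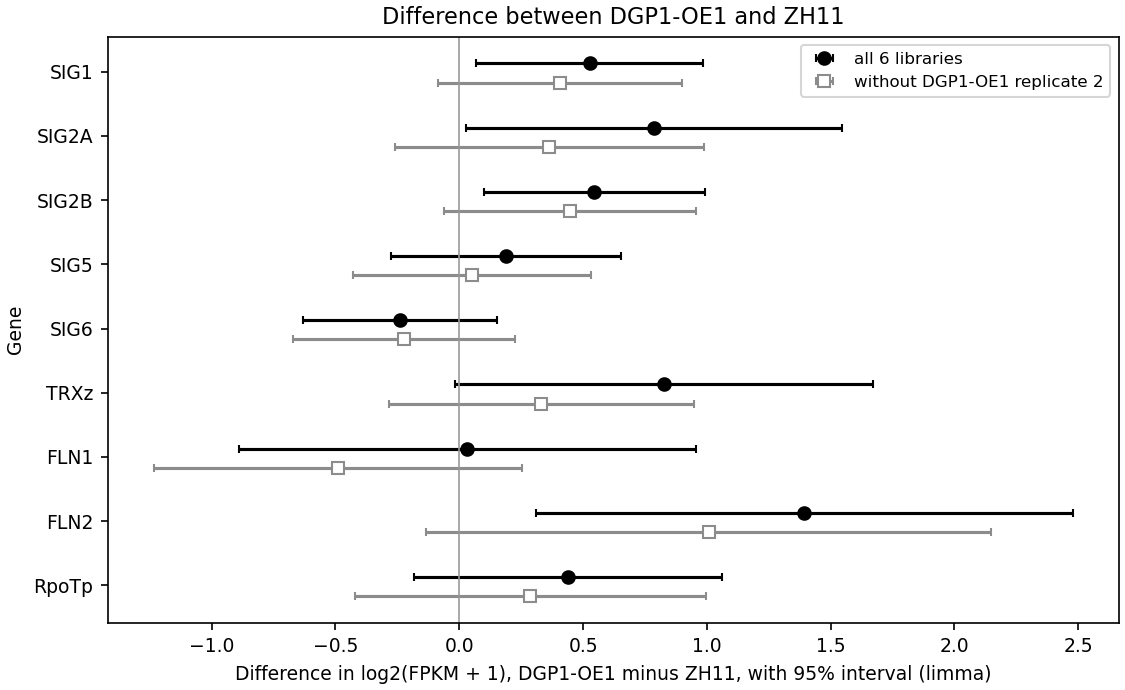
Difference in log2(FPKM + 1), DGP1-OE1 minus ZH11, with its 95% interval from limma, for each gene over all 6 libraries (black circles) and without DGP1-OE1 replicate 2 (grey squares). The intervals of SIG1, SIG2A, SIG2B and FLN2 lie above 0 over all libraries and include 0 without that library, and FLN1 moves from 0.03 to -0.49.

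The makeup of the sigma factor transcripts is a ratio within each library, so a common scale factor cannot move it. SIG6 made up 28.2%, 22.0% and 28.9% of the summed sigma factor FPKM in DGP1-OE1 replicates 1, 2 and 3, against 36.9%, 30.0% and 39.6% in ZH11. Every DGP1-OE1 library was under every ZH11 library. The mean share was 26.4% ± 3.77 in DGP1-OE1 and 35.5% ± 4.95 in ZH11 (mean ± SD, n = 3; two-sided exact permutation p = 0.1, the smallest that 3 against 3 libraries allow). Without DGP1-OE1 replicate 2 the DGP1-OE1 mean was 28.5%.

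The share of SIG1 was 22.6% ± 2.03 in DGP1-OE1 and 17.8% ± 1.76 in ZH11, and that of SIG2B 9.72% ± 0.408 in DGP1-OE1 and 7.53% ± 0.975 in ZH11, again without overlap for either gene (mean ± SD, n = 3; two-sided exact permutation p = 0.1 for both). The shares and ratios were chosen with earlier results of these data known, and their tests were not adjusted over the list. SIG5 held 36.0% ± 2.11 in DGP1-OE1 and 36.0% ± 4.01 in ZH11 (two-sided exact permutation p = 1). SIG2A held 4.35%, 7.89% and 3.61% in DGP1-OE1, against 3.02%, 3.63% and 2.97% in ZH11, where the groups overlapped by a narrow margin (two-sided exact permutation p = 0.2). The shares in a library sum to the whole, so a lower share of SIG6 goes with higher shares elsewhere by construction. The summed level of the 5 genes was 393, 501 and 408 FPKM in DGP1-OE1, against 358, 410 and 372 FPKM in ZH11, with overlap (two-sided exact permutation p = 0.3). The mean sum was 54.2 FPKM higher in DGP1-OE1, or 20.6 FPKM without DGP1-OE1 replicate 2, which also brought the mean share of SIG2A there to 3.98%. The log2 ratio of SIG2A over SIG2B was -0.96 ± 0.62 in DGP1-OE1 and -1.23 ± 0.29 in ZH11 (mean ± SD, n = 3; two-sided exact permutation p = 0.6), with SIG2B above SIG2A in 6 of 6 libraries. Leaving out single libraries moved this difference of 0.27 to between -0.07 and 0.53.

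**Figure D3:**
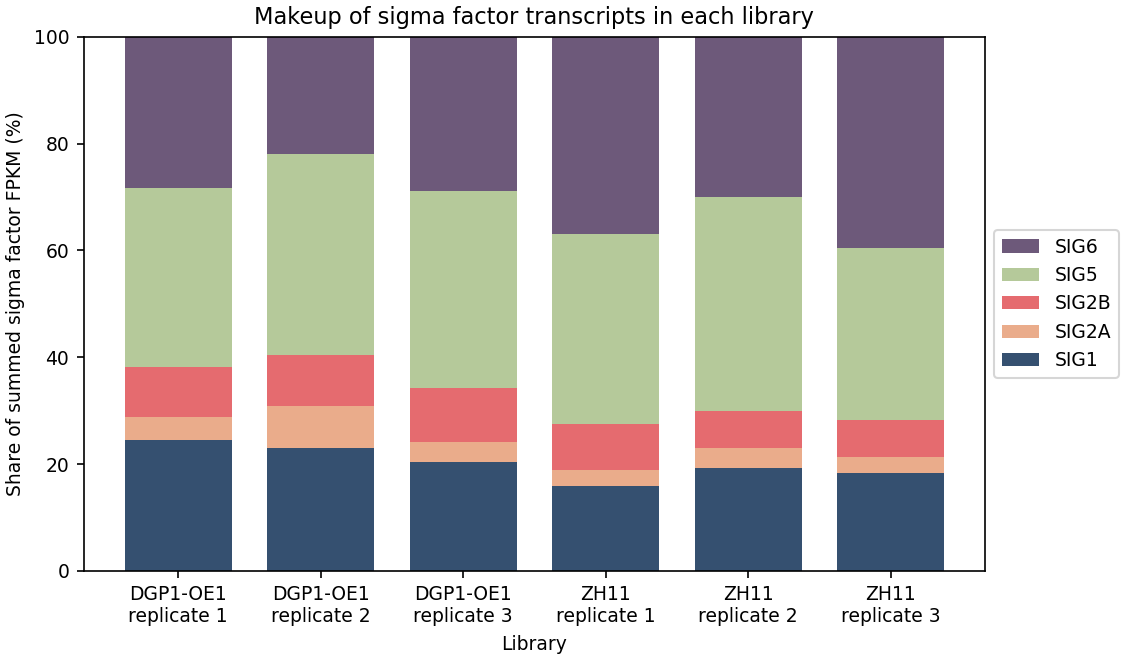
Share of each sigma factor in the summed FPKM of the 5 sigma factor genes, one stacked bar per library, DGP1-OE1 left and ZH11 right. The top segment, SIG6, is between 22.0% and 28.9% in DGP1-OE1 and between 30.0% and 39.6% in ZH11.

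Of the PEP-associated genes, TRXz (Os08g0378900, chromosome 8) encodes a chloroplast thioredoxin that binds the fructokinase-like proteins FLN1 and FLN2, and rice plants without it are pale. TRXz had 32.0, 77.0 and 22.4 FPKM in DGP1-OE1, against 19.8, 27.4 and 17.4 FPKM in ZH11. DGP1-OE1 replicate 2 was at 2.83 times the mean of the other two DGP1-OE1 libraries, one of which lay within the range of ZH11. The log2 difference was 0.83 (SE 0.38) with an interval of -0.02 to 1.67 (limma, adjusted p = 0.578). Without DGP1-OE1 replicate 2 it was 0.33 (limma, adjusted p = 0.796).

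FLN1 (Os01g0851000, chromosome 1), needed in rice for chloroplast development in the seedling, had 4.75, 17.4 and 5.66 FPKM in DGP1-OE1, against 5.99, 9.15 and 8.28 FPKM in ZH11. The direction turned with single libraries. DGP1-OE1 replicate 2 was the highest of all 6, at 3.34 times the mean of the other DGP1-OE1 libraries, and those other two were the lowest of all 6. The log2 difference was 0.03 with an interval of -0.89 to 0.95 over all libraries (limma, adjusted p = 0.991) and -0.49 without DGP1-OE1 replicate 2 (limma, adjusted p = 0.743). It was also below 0 without ZH11 replicate 1, at -0.13, and with libraries scaled to equal totals, at -0.0035.

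FLN2 (Os03g0602600, chromosome 3), whose loss in rice gives pale seedlings that are sensitive to heat, was the lowest of the 9 genes in every library. It stood at 1.05, 6.44 and 4.41 FPKM in DGP1-OE1, against 0.266, 0.856 and 0.942 FPKM in ZH11. No library of one group lay within the range of the other, but DGP1-OE1 replicate 1 was only just above the highest ZH11 library. It averaged 3.97 ± 2.72 FPKM in DGP1-OE1 and 0.688 ± 0.368 FPKM in ZH11 (mean ± SD, n = 3), a ratio of 5.77, or 3.97 without DGP1-OE1 replicate 2. The log2 difference of 1.39 (SE 0.49) was the largest of the 9 (limma, adjusted p = 0.414), and it was 2.18 with a pseudocount of 0.1. FLN2 entered the test only through its DGP1-OE1 libraries, which were its only ones at 1 FPKM or more.

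FLN1 was above FLN2 in all libraries, by 4.51, 2.70 and 1.28 times in DGP1-OE1 and by 22.5, 10.7 and 8.79 times in ZH11. The log2 ratio of FLN1 over FLN2 was thus 1.32 ± 0.91 in DGP1-OE1 and 3.68 ± 0.72 in ZH11 (mean ± SD, n = 3), without overlap (two-sided exact permutation p = 0.1, the smallest possible here). Without DGP1-OE1 replicate 2 the DGP1-OE1 mean was 1.27. The low FLN2 values of ZH11 set the size of this ratio, and the reads behind them are not known. The log2 ratio of TRXz over FLN1 plus FLN2 was 1.77 ± 0.66 in DGP1-OE1 and 1.34 ± 0.39 in ZH11, with overlap (mean ± SD, n = 3; two-sided exact permutation p = 0.4), and single libraries moved the difference of 0.43 to between 0.08 and 0.74. The summed FPKM of TRXz, FLN1 and FLN2 was 37.8, 100.8 and 32.5 in DGP1-OE1, against 26.0, 37.4 and 26.6 in ZH11 (two-sided exact permutation p = 0.2). The difference between the mean sums was 27.1 FPKM with all libraries and 5.18 FPKM without DGP1-OE1 replicate 2.

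RpoTp (Os06g0652000, chromosome 6), the plastid phage-type polymerase, had 8.45, 12.5 and 9.16 FPKM in DGP1-OE1, against 5.60, 7.34 and 8.43 FPKM in ZH11. The groups did not overlap, but DGP1-OE1 replicate 1 and ZH11 replicate 3 were nearly equal. The log2 difference was 0.44 (SE 0.28) with an interval of -0.18 to 1.06 (limma, adjusted p = 0.725), or 0.29 without DGP1-OE1 replicate 2. Against the summed sigma factors the log2 ratio of RpoTp was -5.45 ± 0.11 in DGP1-OE1 and -5.76 ± 0.27 in ZH11 (mean ± SD, n = 3; two-sided exact permutation p = 0.3). Leaving out ZH11 replicate 1 brought this difference of 0.31 to 0.19, and leaving out ZH11 replicate 3 to 0.45.

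Over the 9 genes most log2 differences were above 0, but none was called. The groups of libraries did not overlap for 5 of the 9 genes, 4 higher (SIG1, SIG2B, FLN2 and RpoTp) and 1 lower (SIG6) in DGP1-OE1, where 13.9% of all 18270 rows did not overlap, 6.72% higher and 7.19% lower. FLN2 was tested only through the group in which it was high, and without it the count was 4 of 8. Leaving out a library makes overlap rarer. Without DGP1-OE1 replicate 2 the count was 6 of 9, with FLN1 as a further lower gene, where 24.7% of all rows did not overlap. Without ZH11 replicate 2 it was 8 of 9, 7 higher and 1 lower, where 28.3% did not, 16.7% higher and 11.6% lower. Without DGP1-OE1 replicate 3 it was 7 of 9, where 25.1% did not. The count stayed at 5 of 9 without DGP1-OE1 replicate 1 (20.9% of all rows), ZH11 replicate 1 (21.5%) or ZH11 replicate 3 (23.7%). All these leave-out counts include FLN2, which could enter only as higher. The log2 difference was above 0 for 8 of 9 genes with a median of 0.53, beside 48.9% of all rows and a median of -0.0096. FLN2 is in this count as well, and its sign was fixed by the filter. With a filter at 5 FPKM, where FLN2 was not tested, the log2 difference was above 0 for 7 of 8 genes. The median there was 0.48, and 50.9% of all rows were above 0. Without DGP1-OE1 replicate 2 it was above 0 for 7 of 9, FLN2 among them, with a median of 0.33. Over all rows 44.7% were then above 0, with a median of -0.055.

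DGP1-OE1 replicate 2 was the highest of the 6 libraries for 8 of the 9 genes, all but SIG6. FLN2 is among these 8, and the filter allowed its highest library only in DGP1-OE1. DGP1-OE1 replicate 2 was the highest for 25.6% of all tested rows. Its level relative to the mean of the other DGP1-OE1 libraries ran from 0.966 for SIG6 to 3.34 for FLN1, with a median of 1.42 over the 9 genes and of 1.13 over 17477 rows above 0 in all libraries. Between the percentiles 5 and 95 of those rows it ran from 0.424 to 2.30, and SIG2A, TRXz, FLN1 and FLN2 lay above that range. In the wild type ZH11 replicate 2 was the highest ZH11 library for SIG1, SIG2A, SIG5, TRXz and FLN1. The share of all rows with this trait was not counted. ZH11 replicate 1 was the lowest of the 6 libraries for 4 of the 9 genes (SIG1, SIG2A, FLN2 and RpoTp). It was the lowest for 23.4% of all tested rows, and the filter allowed the lowest library of FLN2 only in ZH11. Without ZH11 replicate 1 the log2 difference was 0.40 for SIG1 and 0.30 for RpoTp, about as low as without DGP1-OE1 replicate 2, at 0.41 and 0.29. Why single libraries were the highest or lowest was not tested.

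**Figure D4:**
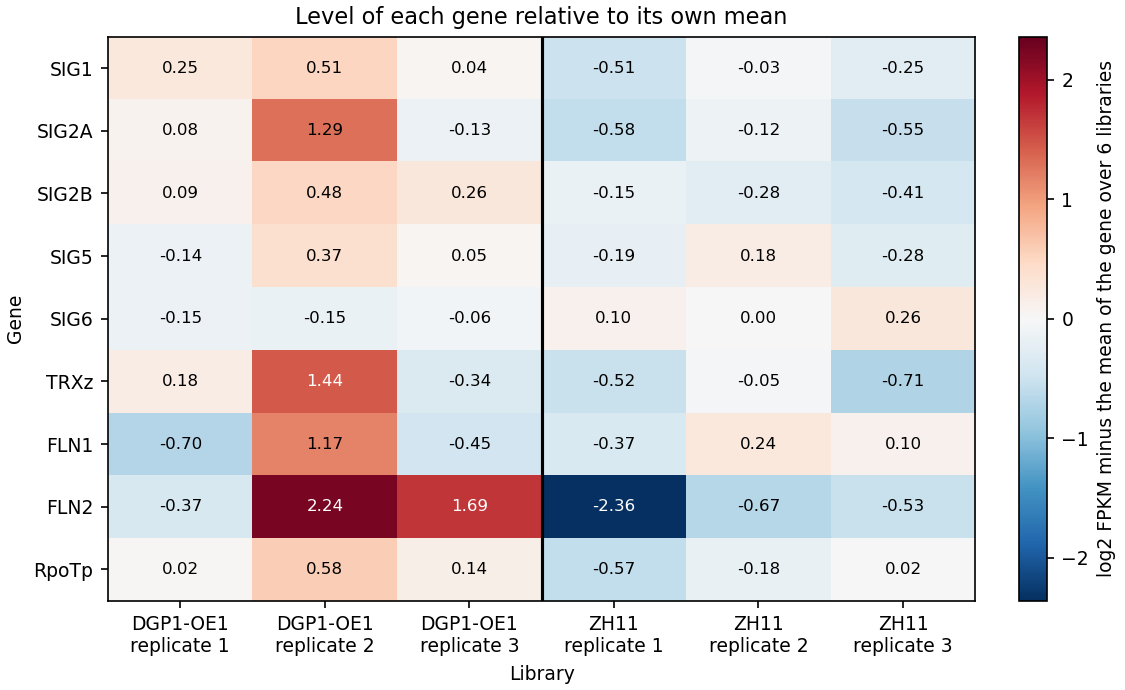
Level of each gene in each library as log2 FPKM minus the mean of that gene over the 6 libraries, DGP1-OE1 left of the line and ZH11 right. DGP1-OE1 replicate 2 is at 1.29 for SIG2A, 1.44 for TRXz, 1.17 for FLN1 and 2.24 for FLN2, while SIG6 stays between -0.15 and 0.26 in all libraries.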

How the data were processed

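RNA from rice leaves was sequenced in 3 libraries of DGP1-OE1 and 3 of ZH11. The deposited values are FPKM, made by the authors. Per the submitters' processing notes HISAT2 2.0, StringTie 1.3.0 and Bowtie 0.12.2 were used, with no role or order given. These notes name the mouse build mm8, and the rice build is not given in the sources used here. Columns named DGP1-OE with a number were taken as the DGP1-OE1 libraries of that number. Of 19696 IDs, 0 matched the RefSeq gene table (assembly ASM3414082v1), so no sequence or coordinate is printed and planned lists of other plastid transcription genes and of leaf markers could not be filled.

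Rows at 1 FPKM or more in at least 3 libraries were kept (18270). The log2(FPKM + 1) values were fitted with limma 3.58.1 in R 4.3.3 (intensity trend, no block, two-sided, Benjamini-Hochberg, threshold 0.05), as DGP1-OE1 minus ZH11. This scale understates changes of low genes such as FLN2. Sums, shares and ratios of genes were compared by exact permutation tests in SciPy 1.17.1, not adjusted over the list, and these cannot go below 0.1. No step of 1 read was visible in low values (at most 3.70% of rows under 0.5 FPKM in a pair of libraries shared 1 ratio within 0.02 log2 units), so no counting interval is given. All 9 genes are described whatever their values. The genes, ratios and tests were chosen with earlier results of these data known. Alternatives were a pseudocount of 0.1, no filter or one at 5 FPKM, 3 other scalings, no trend, robust moderation, a replicate block and each library left out.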

Additional observations from a re-analysis of the deposited data

How the results depend on the processing

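In the 17 other settings tried, no gene of the set was called. The log2 differences of the 8 genes other than FLN1 kept their direction in every setting that gave a value. FLN2 is among these 8, but its sign was fixed wherever the filter at 1 FPKM was used. Its direction was free only with no filter, where the log2 difference was 1.39. FLN2 had no value with a filter at 5 FPKM or quantile normalization, where it was not tested. At an unadjusted p under 0.05 (limma) stood 4 of the 9 genes in the fit reported, where 8.8% of all rows did. It was 2 of 9 without an intensity trend (8.22% of rows), 3 of 9 with equal totals (8.7%), 5 of 9 with median-of-ratios scaling (10.1%) and 5 of 9 with the replicate block (12.3%). FLN2 is among the 9 in each of these counts, and in the fit reported it could enter only as higher. FLN1 had a log2 difference of -0.0035 with equal totals, and leaving out each library gave -0.49 to 0.35. Settings added after seeing the data gave -0.44 for FLN1 with median-of-ratios scaling without DGP1-OE1 replicate 2, and -0.38 with both replicates numbered 2 left out. The differences in shares, sums and ratios moved by less than 1 SD between replicates under the other scalings and the pseudocount. Leaving out single libraries could not move them by more than that, but it took the difference in summed FPKM of TRXz, FLN1 and FLN2 to between 5.18 and 39.3, and it turned the sign of the SIG2A over SIG2B log2 ratio (-0.07 to 0.53) and of the SIG5 share (-1.89 to 2.10 percentage points). Over all rows, 29 higher and 36 lower calls became 16 to 39 and 9 to 42 when each library was left out, and 61 and 83 with both replicates numbered 2 left out. Lower calls numbered 14 when the intensity trend was dropped and 21 at a pseudocount of 0.1. The replicate number as a block gave 130 higher and 139 lower calls over all rows and 0 of the 9 genes, the lowest adjusted p being 0.141 for TRXz (limma). The labels do not tie equal numbers to a plant or day, so the numbers were not taken as pairs. Deviations of same-numbered libraries correlated at 0.016, 0.38 and 0.14. The libraries numbered 2 correlated best with each other, but not every library did so with its own number. These values do not settle whether equal numbers are pairs. The cause of these changes was not tested. The depth is unknown, so missed calls cannot be traced to coverage.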

Other observations

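The level of TRXz relative to FLN1, a pair picked after its values were seen, was 6.74, 4.43 and 3.96 in DGP1-OE1 replicates 1, 2 and 3, against 3.30, 2.99 and 2.10 in ZH11. The groups did not overlap, although both genes had their highest FPKM in DGP1-OE1 replicate 2.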
